A study of Mus musculus with 4 samples.

Results

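The 2 transition protein genes, Tnp1 and Tnp2, and the 3 genes named as protamines, Prm1, Prm2 and Prm3, were followed in testes of mice lacking Taf7l. They were found by gene symbol in the platform annotation, with symbols updated through the RefSeq table of GRCm38.p6, and no probe set that names several genes included one of them. The 5 genes had 8 of the 45037 mouse probe sets on the array: 3 for Prm1, 2 for Tnp1 and 1 each for Prm2, Prm3 and Tnp2. Taf7l knockout testes gave 2 arrays and wild type testes gave 2, with whole testis RNA of 8-week-old males on Affymetrix arrays. Every animal was on the C57BL/6J background, and the design text describes knockouts and controls as littermates. The labels do not say which part of Taf7l is deleted. Title and description disagree on the replicate number of knockout array 2, so separate animals are not certain, and each p-value then reflects only array-to-array spread, part of which may be technical.

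During spermiogenesis the histones of the spermatid nucleus are replaced first by the transition proteins and then by the protamines, small arginine-rich proteins that pack sperm DNA into a compact, transcriptionally silent state. Their genes are transcribed in round spermatids under cAMP response element modulator (CREM) and related factors. The mRNAs are then stored as ribonucleoproteins and translated only in elongating spermatids, when transcription has stopped. Taf7l, an X-linked relative of the general transcription factor subunit Taf7, is enriched in male germ cells.

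In RefSeq annotation, Tnp2, Prm3, Prm2 and Prm1 lie in that order on chromosome 16, with no other annotated gene between them, in a stretch of 8889 bases, and Tnp1 lies alone on chromosome 1. All 5 have a promoter window of 250 bases before to 50 after the start in the RefSeq table (GRCm38.p6), and each gene is on the minus strand. Windows were searched on both strands for TATAAA, for TGACNTCA, a relaxed spelling of the cAMP response element, and for CCAAT. Among 32851 windows of 300 bases in the table, 13.6% held TATAAA, 8.83% held TGACNTCA and 37.4% held CCAAT. Prm1, Tnp1 and Prm3 each held 1 match to TGACNTCA, beginning 64, 94 and 60 bases before the start. Prm2 held 1 match to TATAAA, beginning 31 bases before the start, Prm3 held CCAAT 150 bases before it, and Tnp2 held none of the 3 spellings. No matches overlapped. The windows of Prm1, Prm2 and Tnp1 are shown 5′ to 3′ along each gene, because these genes had some of the brightest probe sets on the arrays, with matches in capitals (on the opposite strand for Prm2 and Tnp1).
Prm1, chr16:10796774-10797073, minus strand: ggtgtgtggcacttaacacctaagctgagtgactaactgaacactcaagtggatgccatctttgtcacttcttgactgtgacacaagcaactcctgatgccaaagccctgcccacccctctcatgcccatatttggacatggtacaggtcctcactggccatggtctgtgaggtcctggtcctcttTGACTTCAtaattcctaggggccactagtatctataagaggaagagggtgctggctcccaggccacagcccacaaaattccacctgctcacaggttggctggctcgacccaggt
Prm2, chr16:10792056-10792355, minus strand: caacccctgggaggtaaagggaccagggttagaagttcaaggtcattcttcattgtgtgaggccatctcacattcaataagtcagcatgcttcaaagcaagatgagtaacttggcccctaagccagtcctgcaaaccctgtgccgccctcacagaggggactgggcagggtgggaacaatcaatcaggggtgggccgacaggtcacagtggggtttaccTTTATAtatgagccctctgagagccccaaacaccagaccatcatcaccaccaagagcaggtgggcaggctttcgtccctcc
Tnp1, chr1:73015850-73016149, minus strand: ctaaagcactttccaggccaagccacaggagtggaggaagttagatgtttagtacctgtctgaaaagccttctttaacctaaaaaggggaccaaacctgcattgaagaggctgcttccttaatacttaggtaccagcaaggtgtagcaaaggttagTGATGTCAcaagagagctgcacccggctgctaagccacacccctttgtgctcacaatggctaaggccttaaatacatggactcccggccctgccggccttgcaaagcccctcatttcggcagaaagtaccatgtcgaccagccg
A match is a description of the letters and no measurement of binding.

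The targeted gene checked the labels first. Taf7l had a MAS5 signal (a linear intensity per probe set) of 80.6 and 72.5 on the knockout arrays, against 829 and 818 on the wild type arrays (log2 difference −3.43, SE 0.10, limma adjusted p = 0.0033). Throughout, a difference is mean log2 signal in knockout minus wild type, a probe set was tested when its mean signal over the 4 arrays was at least 45.8, and it was called at an adjusted p under 0.05. Of 22519 probe sets tested, 312 (1.39%) were called, 100 higher and 212 lower in the knockout, and the median difference of all of them was −0.045. Another scaling turned that balance: 91 of 148 calls were higher after quantile normalization and 367 of 598 with equal trimmed means. With equal trimmed means the median of all probe sets was 0.060, a shift of over 0.1, so a difference of that size depends on the scaling. Wild type replicate 2 stood apart in adipocyte markers, with a summed signal of 4114 over 5 genes against 941 on wild type replicate 1, and 1039 and 1748 in the knockout.

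The transition proteins and protamines were among the brightest signals in knockout and wild type testes alike, and none of their 8 probe sets was called (0 of 8, against the 1.39% of all probe sets; limma). In mean log2 signal, 6 of the 8 were lower in the knockout and 2, both for Prm1, were higher, with differences from −0.29 to 0.09. That is near the 60% of all tested probe sets that were lower, and with equal trimmed means 5 of 8 members and 38.4% of all were lower. At an unadjusted p under 0.05 there were 3 of 8 (Prm3, Tnp2 and the brighter Tnp1 probe set), against 24.7% of all probe sets. The groups did not overlap, with the knockout lower, at 4 of 8, against 36.3% of all probe sets, and with the knockout higher at 1 of 8, against 18.7%. Over the brightest probe set of each of the 5 genes the median difference was −0.14. RNA came from whole testis, so fewer spermatids and less mRNA per spermatid cannot be told apart. Signals below are given for both arrays of each genotype.

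**Figure D1:**
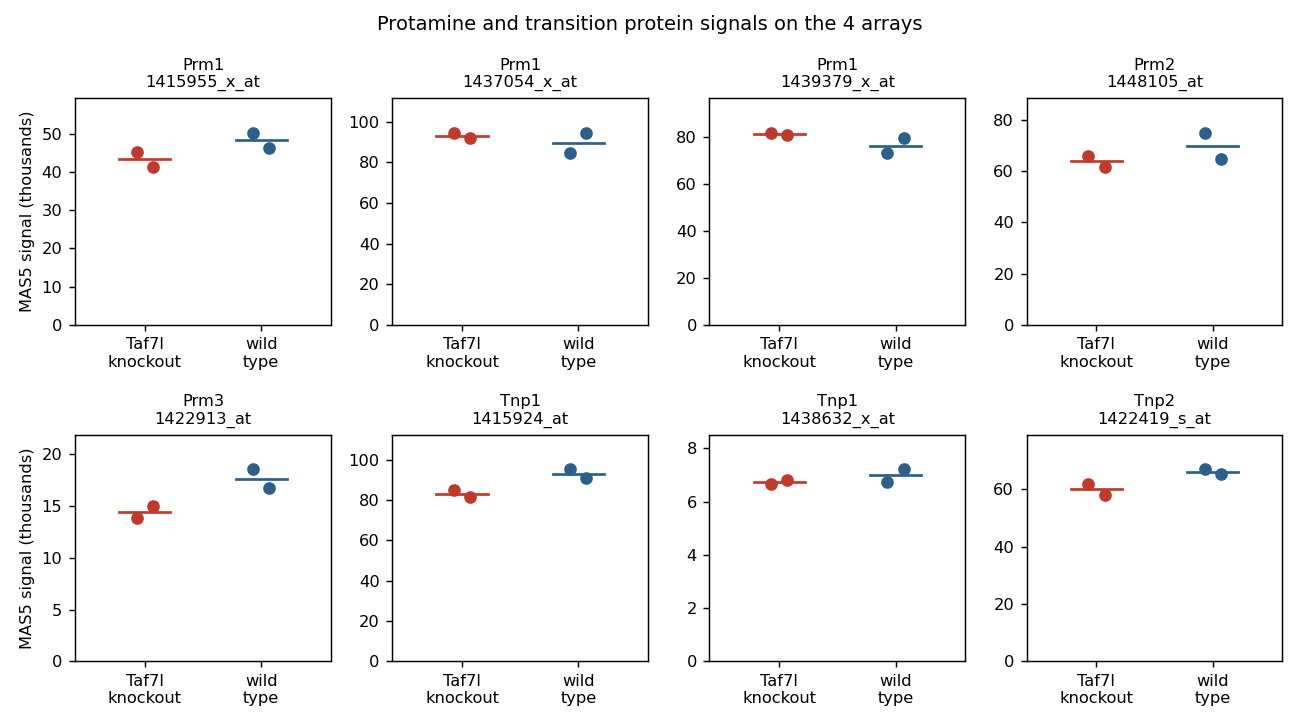
MAS5 signal (vertical axes, from 0, scaled as the axis label says) of the 8 protamine and transition protein probe sets, with Taf7l knockout left and wild type right in each panel; points are arrays and lines are means of 2 arrays. Signals are high in both genotypes, and for Prm3, for Tnp1 at 1415924_at, for Tnp2 and for Prm1 at 1415955_x_at both knockout arrays lie below both wild type arrays.

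Tnp1, whose small basic product occupies chromatin between histones and protamines, had signals of 84812 and 81319 on the knockout arrays at its brighter probe set (1415924_at), against 95304 and 91004 on the wild type arrays. Both knockout arrays were below both wild type arrays, by a margin larger than the spread within either genotype. The means were 83065 ± 2470 in knockout and 93154 ± 3040 in wild type (SD, n = 2 each), a difference of −0.17 (SE 0.05, 95% interval −0.28 to −0.05) that did not pass (limma adjusted p = 0.11). With only probe sets above the 75th percentile of mean signal tested, it passed (limma adjusted p = 0.029), as did 2375 of all 11260 tested there. The other Tnp1 probe set (1438632_x_at) was far dimmer, at 6675 and 6818 in knockout against 6746 and 7211 in wild type. Its groups overlapped, its difference was −0.05 (95% interval −0.20 to 0.10), and the sign turned to 0.06 under quantile normalization and with equal trimmed means.

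Tnp2, the second transition protein, carries zinc-binding motifs and is imported into the spermatid nucleus before the protamines. Its signals were 61917 and 58075 in knockout against 67058 and 65361 in wild type. Both knockout arrays were below both wild type arrays. The difference was −0.14 (SE 0.05, 95% interval −0.27 to −0.02, limma adjusted p = 0.16). It was not called in any of the 8 alternatives that called any probe set. Both transition protein values depend on the scaling: with equal trimmed means Tnp1 at 1415924_at differed by −0.06 (SE 0.05) and Tnp2 by −0.04 (SE 0.06), and after quantile normalization by −0.11 (SE 0.08) and −0.09 (SE 0.03).

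Prm1, the protamine shared by mammals, was measured by 3 probe sets that did not point the same way. At 1415955_x_at the knockout had 45133 and 41436, against 50335 and 46335 in wild type. At 1437054_x_at the knockout had 94362 and 91948, against 84759 and 94761 in wild type. At 1439379_x_at the knockout had 82020 and 80894, against 73308 and 79497 in wild type. The first was lower on both knockout arrays, 1437054_x_at overlapped, and 1439379_x_at was higher on both knockout arrays. Their differences were −0.16 (95% interval −0.33 to 0.01), 0.06 (−0.10 to 0.22) and 0.09 (−0.04 to 0.23), with limma adjusted p of 0.22, 0.64 and 0.34. Without wild type replicate 1, the lowest wild type array at 1437054_x_at and 1439379_x_at, these were −0.100, −0.025 and 0.035. Within each array 1415955_x_at minus 1439379_x_at was −0.86 and −0.97 in knockout against −0.54 and −0.78 in wild type, which do not overlap (difference −0.25, two-sided exact permutation p = 0.333, the smallest that 2 against 2 arrays can give). The suffix x in all 3 names marks probes that can also match other transcripts, so no common direction can be given for Prm1. The dimmer Tnp1 probe set (1438632_x_at) carries the same suffix. Whether the probes of 1422419_s_at, the only Tnp2 probe set, also match other transcripts was not checked.

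Prm2, the second nuclear protamine, is made as a precursor that is cut in the elongating spermatid. Its signals were 66049 and 61722 in knockout against 75096 and 64678 in wild type. Wild type replicate 1 was the high array, and the other 3 overlapped. The difference was −0.13 (SE 0.08, 95% interval −0.34 to 0.08, limma adjusted p = 0.41), and it was −0.02 without wild type replicate 1 and −0.23 without wild type replicate 2.

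Prm3 sits within the cluster but, in mouse, encodes an acidic protein of the spermatid cytoplasm in place of a nuclear packing protein. It had 13896 and 15012 in knockout against 18562 and 16708 in wild type. Both knockout arrays were below both wild type arrays, and its mean of 14454 ± 789 in knockout against 17635 ± 1310 in wild type (SD, n = 2 each) was the most negative difference of the 8 (−0.29, SE 0.07, 95% interval −0.47 to −0.10). It was 1.22-fold lower and did not pass (limma adjusted p = 0.097). It passed in the test limited to probe sets above the 75th percentile (limma adjusted p = 0.026), which called 2375 of its 11260 probe sets. With any 1 array left out, the Prm3 difference ranged from −0.36 to −0.21.

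**Figure D2:**
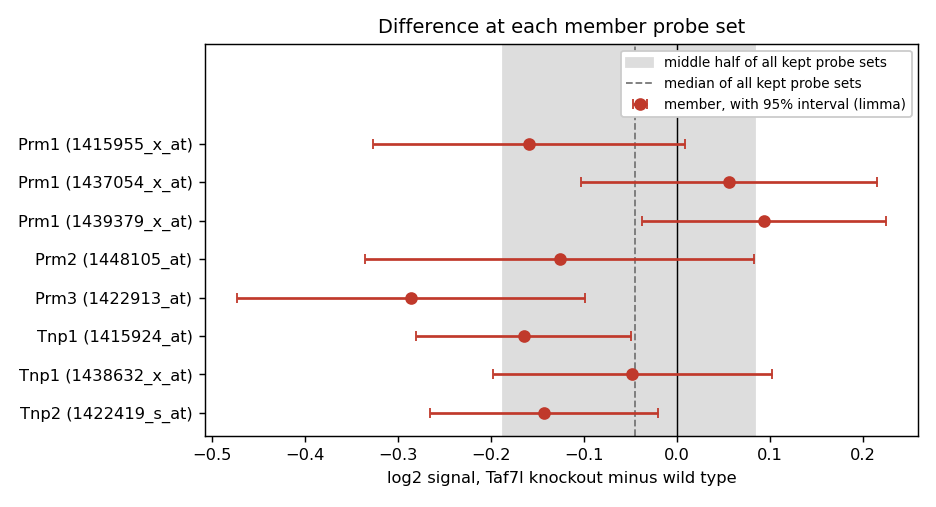
Log2 difference, knockout minus wild type (horizontal axis), with its 95% interval from limma, for the 8 member probe sets; the grey band is the interquartile range (−0.19 to 0.08) and the dashed line the median (−0.045) of all 22519 tested probe sets. Only Prm3 lies outside the band on the low side, and only the Prm1 probe set 1439379_x_at on the high side.

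Very bright probe sets can lose part of a difference when probes saturate, and no saturation flags were used here. By mean signal only 1 mouse probe set was brighter than Prm1 at 1437054_x_at, 2 were brighter than Tnp1 at 1415924_at, 5 brighter than Prm2 and 7 brighter than Tnp2, whereas 451 were brighter than Prm3. These ranks describe light on the array and not mRNA amounts, since probes differ in response. On each array 2 probe sets, a member among them, lay within 10% of the highest signal, which ran from 95304 to 103609. That count is of probe set signals, so it cannot show whether single probes were saturated. Differences were small across all of the brightest probe sets. Among the 100 brightest the SD of the difference was 0.11 and 0 of 100 differed by 0.5 or more in size, against 0.26 and 5.64% over all tested probe sets. Arrays of 1 genotype also differed less there, with an SD between the knockout arrays of 0.09 against 0.21 over all, and between the wild type arrays of 0.08 against 0.21. Prm3, which is not among the 100 brightest, differed more than the 6 member probe sets that are (−0.29), while the dimmer Tnp1 probe set, with 1399 brighter than it, differed less in size than each of those 6 (−0.05). How far saturation enters these values was not tested.

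**Figure D3:**
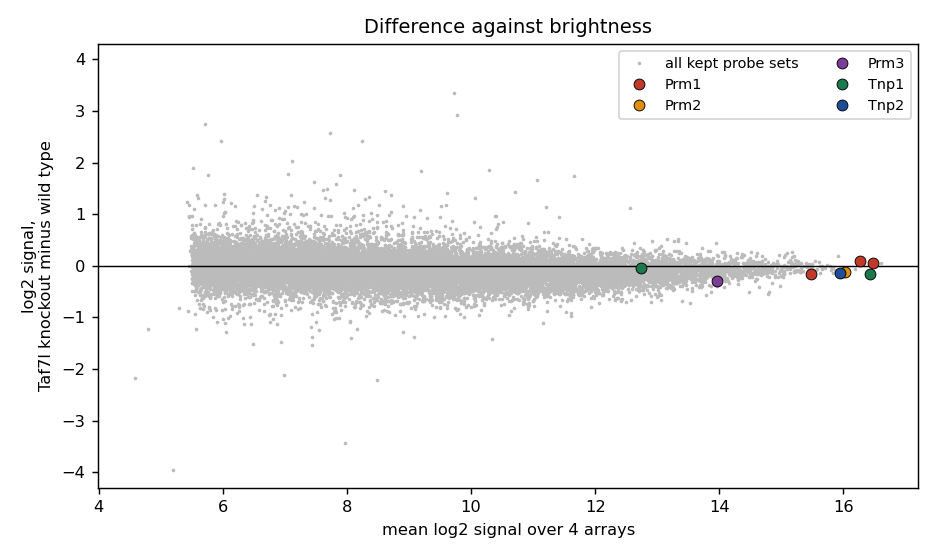
Log2 difference, knockout minus wild type (vertical axis), against mean log2 signal over the 4 arrays (horizontal axis) for all 22519 tested probe sets (grey) and the 8 members (coloured by gene). The members lie at the bright end, where differences of all probe sets are narrow, and between −0.29 and 0.09.

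A difference within an array does not depend on the factor by which that array was scaled, so each member was also set against other spermatid genes of its own array. The mean log2 signal of 15 elongating spermatid genes differed by −0.11 between genotypes, and that of 14 round spermatid genes by −0.16. Relative to the elongating list, Tnp1 at 1415924_at was 2.01 and 1.99 above it in knockout against 2.05 and 2.05 in wild type. This difference was −0.05, with no overlap. Tnp2 differed by −0.03 and Prm2 by −0.01, both with overlapping arrays. Relative to the round spermatid list the same 3 probe sets differed by −0.01, 0.01 and 0.03, all overlapping. Prm3 differed by −0.17 from the elongating list and −0.13 from the round list with no overlap, and Prm1 by 0.17 and 0.21 at 1437054_x_at and by 0.21 and 0.25 at 1439379_x_at, also with no overlap. The dimmer Tnp1 probe set differed by 0.07 with overlap and by 0.11 with none, and Prm1 at 1415955_x_at by −0.05 and −0.004, both overlapping. The exact permutation p was 0.333 at best, so none of these could pass. Single arrays carried much of this: without wild type replicate 1, Prm1 at 1437054_x_at differed by 0.06 from the elongating list and 0.10 from the round list, and Prm3 by −0.13 and −0.08. Without knockout replicate 1, Prm3 differed by −0.10 from the elongating list, and Tnp1 and Tnp2 by −0.08 each from the round list. Their signs against the round list were not stable, with Tnp2 at 0.10 without knockout replicate 2.

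**Figure D4:**
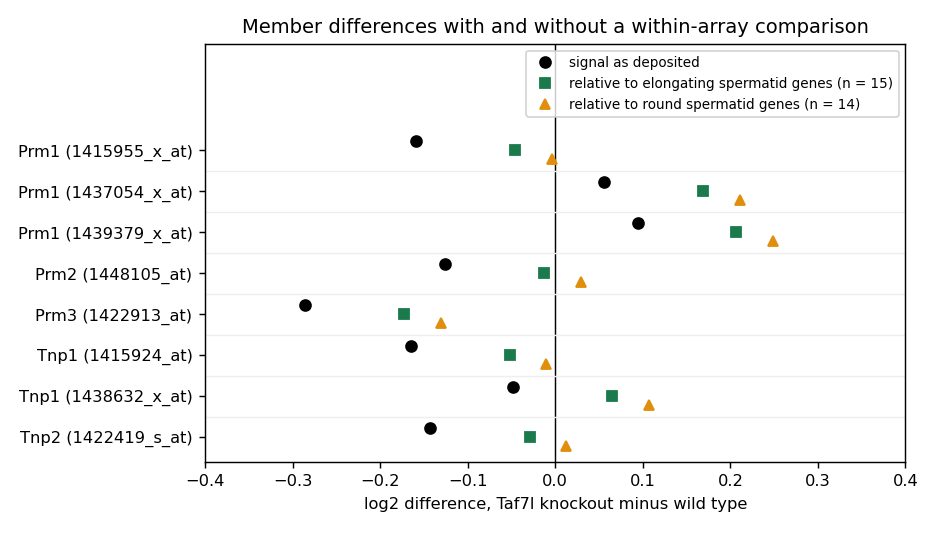
Log2 difference, knockout minus wild type (horizontal axis), of each member probe set as deposited (circles), relative to the mean of 15 elongating spermatid genes on the same array (squares) and relative to that of 14 round spermatid genes (triangles). Tnp1 at 1415924_at, Tnp2 and Prm2 move closer to 0 (−0.052 to 0.029), Prm3 stays below 0 and the Prm1 probe sets 1437054_x_at and 1439379_x_at lie further above it.

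Factors that act on spermatid promoters, listed with the kinesin gene Kif17, were mostly not called. Of 12 measured, 10 were lower (median −0.15, against 60% lower and a median of −0.045 over all tested probe sets). The 10 include Taf7l itself, the single call, whose fall was fixed by the knockout. The counts of lower genes here and in the lists below depend on the scaling: with equal trimmed means 7 of these 12, Taf7l among them, were lower. As deposited, the share of lower probe sets also varied with brightness. Most of these 12 genes had mean signals of 626 to 14988. Of all probe sets at 4812 to 14988, 73.7% were lower (median −0.111), and at 626 to 4810, 69.1% (median −0.111). Of dimmer ones 54.5% were lower (median −0.017), and of the 100 brightest 63% (median −0.018). No list was tested against probe sets of like brightness. Crem, the spermatid activator of cAMP response elements, had 7851 and 9935 in knockout against 10498 and 9771 in wild type (difference −0.20, limma adjusted p = 0.38). Its arrays overlapped. Kif17, a kinesin that in mouse spermatids moves the CREM coactivator Fhl5, had 1932 and 2131 against 2987 and 2694 (difference −0.48, limma adjusted p = 0.060), while Fhl5 differed by −0.01. The TBP-like factor gene Tbpl1 differed by 0.04, and Rfx2, a regulator of round spermatid genes, by −0.33 (limma adjusted p = 0.12).

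Proteins that store these mRNAs or hold their translation gave 0 calls among 14 genes, with 11 lower (median −0.05) as deposited but 6 lower with equal trimmed means (median 0.06) or quantile normalization (0.05). Tarbp2, which in mouse is needed for protamine mRNA translation, had 2528 and 2365 in knockout against 3028 and 2937 in wild type (difference −0.29, limma adjusted p = 0.081). Tsnax, the partner of the RNA-binding protein translin, was on the other side, at 1118 and 1174 against 965 and 899 (difference 0.30, limma adjusted p = 0.097). Papolb, the testis poly(A) polymerase gene, differed by −0.15 and Ybx2, a Y-box protein that binds stored spermatid mRNAs, by −0.17.

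Among 8 genes for handling the proteins, 7 were lower (median −0.21, and 6 lower with equal trimmed means) and 1 was called. Ipo4, an importin known to bring Tnp2 into the nucleus, fell at 1 of its 2 probe sets, with 6136 and 6229 in knockout against 8468 and 8655 in wild type (1.38-fold lower, difference −0.47, SE 0.05, limma adjusted p = 0.047). At the other it had 1950 and 1995 against 2334 and 2415 (difference −0.27, limma adjusted p = 0.082). Hspa2, a chaperone that binds transition proteins, was at 13748 and 14418 against 18156 and 17711 (difference −0.35, limma adjusted p = 0.051). Tssk6, a kinase needed for histone replacement in mouse, was at 7996 and 8338 against 10533 and 10070 (difference −0.34, limma adjusted p = 0.055). Both missed the threshold, and the protamine kinase gene Srpk1 (−0.11), the Prm2 kinase gene Camk4 (−0.24) and the phosphatase gene Ppp1cc (0.03) were further from it. Groups did not overlap at 6 of the 8 genes, Srpk1 and Camk4 among them, against 55% of all tested probe sets. Over 13 alternatives this Ipo4 difference ranged from −0.49 to −0.36. Of the 8 alternatives that called any probe set, it lost its call in 2, quantile normalization and the fit without a trend.

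Of 15 other spermatid chromatin genes, 13 were lower (median −0.09, but 7 lower and 0.01 with equal trimmed means) and 1 was called, the H2A-like histone variant gene H2al3, at 2354 and 2125 in knockout against 3899 and 4965 in wild type (1.97-fold lower, limma adjusted p = 0.049). Hmgb4, a spermatid HMG-box protein, had 30545 and 31611 against 36473 and 35764 (difference −0.22, limma adjusted p = 0.070), and Kat5, an acetyltransferase gene of histone hyperacetylation, 1779 and 1850 against 2408 and 2590 (−0.46, limma adjusted p = 0.051). The linker histone variant genes H1f7 and Hils1 differed by 0.004 and −0.07, and Brdt, the reader of acetylated histones, by −0.03. This list ran from −0.98 to 0.08, and of the member probe sets only Prm1 at 1439379_x_at (0.09) lay outside that range.

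**Figure D5:**
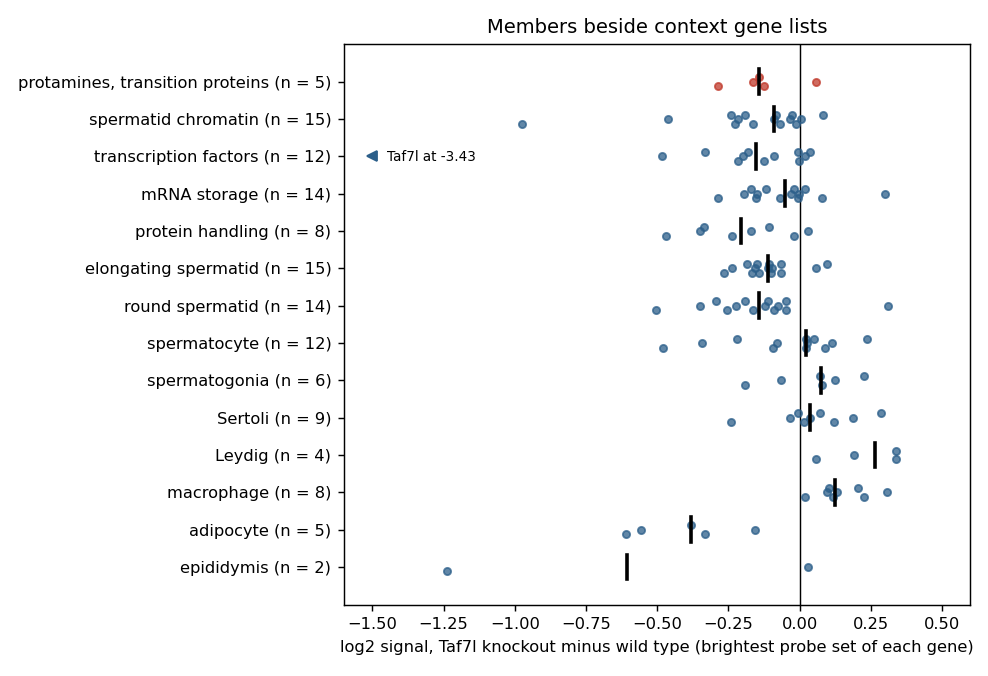
Log2 difference, knockout minus wild type (horizontal axis), at the brightest tested probe set of each gene for the 5 member genes (red) and 13 gene lists (blue); bars are medians, n is the number of genes, and Taf7l at −3.43 is drawn at the edge. Medians of the member, spermatid and spermatid-factor lists lie below 0 as deposited (those of chromatin and mRNA storage turn to 0.01 and 0.06 with equal trimmed means), and those of the Leydig and macrophage lists lie above it.

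Markers of spermatid stages and of other testis cells gave the following levels beside the member values. Of 15 elongating spermatid genes 13 were lower (median −0.11, 0 called, and 9 lower with equal trimmed means), with a summed signal of 379237 to 389587 in knockout and 407707 to 422057 in wild type. Of 14 round spermatid genes 13 were lower (median −0.14, and 9 lower with equal trimmed means), with 164525 to 172449 in knockout and 180115 to 188290 in wild type. Acrbp was called at the dimmer of its 2 probe sets (difference −0.59, limma adjusted p = 0.049). The brighter one was also lower but missed the threshold (difference −0.35, limma adjusted p = 0.059). Spermatocyte genes had a median of 0.02 (7 of 12 higher, 0 called) and spermatogonial genes 0.08 (4 of 6 higher, 0 called). The 3 spermatocyte genes with the smallest p were nevertheless lower, with no overlap of the groups. They were Ccna1 (−0.48, limma adjusted p = 0.067), Syce1 (−0.22, limma adjusted p = 0.084) and Meiob (−0.34, limma adjusted p = 0.092). All 4 measured Leydig genes were higher (median 0.27), summing to 18652 to 18733 in knockout and 14839 to 15167 in wild type, and Cyp17a1, an enzyme of androgen synthesis, rose (difference 0.34, limma adjusted p = 0.0496). All 8 macrophage genes were higher (median 0.12, 0 called), summing to 4002 to 4264 in knockout and 3654 to 3689 in wild type. Sertoli genes had a median of 0.04 (6 of 9 higher, 0 called). All 5 adipocyte genes were lower in mean log2 signal (median −0.38, 0 called). At Fabp4, Car3 and Lpl this direction came from wild type replicate 2 alone, because both knockout arrays lay above wild type replicate 1. Fabp4, for example, had 265 and 552 in knockout against 170 and 1455 in wild type. Of the 2 epididymis genes above the filter 1 was higher and 1 lower (0 called). The ratio of 3′ to 5′ signal at the Actb control probe sets, which rises as RNA degrades, was 2.43 and 2.18 in knockout and 2.09 and 1.999 in wild type. The same ratio at the Gapdh control lay the other way, at 0.927 and 0.938 in knockout and 1.041 and 0.990 in wild type, so these controls give no common direction. The part of cell makeup or RNA integrity in the member values was not tested. Over 13 alternatives the difference ranged from −1.15 to −0.80 for H2al3, from −0.67 to −0.46 for Acrbp and from 0.32 to 0.44 for Cyp17a1, and of the 8 alternatives that called any probe set each lost its call in 3.

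Among 19991 tested probe sets of other single genes, those whose profile over the 4 arrays was nearest to the mean member profile (Euclidean distance of log2 signals centred on their own mean) were for Kdm3a, AW549877, Bbs1, Zfp281 and Mtf2, at distances of 0.0075 to 0.0129 and differences from −0.14 to −0.12. Kdm3a, a histone lysine demethylase gene, had 4190 and 4059 in knockout against 4624 and 4424 in wild type. Over only 4 arrays such likeness is weak: 98 other probe sets lay nearer to that mean profile than Tnp1, and 10317 nearer than the brightest Prm1 probe set.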

How the data were processed

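Testis RNA was measured on 2 Taf7l knockout and 2 wild type Affymetrix arrays, grouped by their titles. The deposited table holds 1 linear intensity (signal) per probe set and array, made with MAS5 per the submitters' processing notes, with no version, scaling target or genome build in the sources used here. MAS5 treats each array alone, and means without the top and bottom 2% of signals were 465 and 481 for knockout and 509 and 509 for wild type, so scaling can move a small difference. The 64 control probe sets were left out. Signals were taken to log2 (offset 0), and 22519 probe sets with a mean of at least 45.8 (the median) were tested with limma 3.58.1 in R 4.3.3 (lmFit, eBayes with trend, two-sided, Benjamini-Hochberg over all of them), with 2 residual and 3.17 prior degrees of freedom. Precision is limited by having 2 arrays a genotype.

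The procedure was tested on simulated data. The members and the 13 gene lists were chosen with earlier results of these data known. Of 148 list genes, 135 had a single-gene probe set, and the lists give 1 value per gene, its brightest tested probe set. Named are all member probe sets, Taf7l, called list genes, up to 3 list genes with the smallest p, and the 5 nearest profiles. Ybx2, Crem, Fhl5, Tbpl1, Srpk1, Camk4, Ppp1cc, H1f7, Hils1 and Brdt were named for their known roles, after their values were seen. Promoter sequences are those of RefSeq (GRCm38.p6), and no coordinates are given for probe sets. Alternatives were quantile normalization, median centring, equal trimmed means, an offset of 5.52, no filter, a 75th percentile filter, a block for the replicate number, eBayes without trend or with a robust prior, the list median in place of its mean, and leaving out each array. Equal trimmed means for the gene lists were added after seeing the data.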

Additional observations from a re-analysis of the deposited data

How the results depend on the processing

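Over 13 alternatives the 8 member probe sets gave 104 values, of which 99 kept their direction and stayed uncalled. Only 8 of the 13 alternatives called any probe set, so in the others no member could be called. The 75th percentile filter called Prm3 (−0.29, limma adjusted p = 0.026) and Tnp1 at 1415924_at (−0.17, limma adjusted p = 0.029). With that filter 2375 of all 11260 tested probe sets were called, against 312 of 22519 in the main fit. The dimmer Tnp1 probe set turned to 0.061 under quantile normalization and 0.057 with equal trimmed means. The Prm1 probe set 1437054_x_at turned to −0.025 without wild type replicate 1, and ranged from −0.025 to 0.136 with 1 array left out. Equal trimmed means turned the median of the spermatid chromatin list to 0.014 and of the mRNA storage list to 0.055. The median over the 5 genes stayed between −0.20 and −0.04. Within arrays, against the elongating list, Prm2 ranged from −0.092 to 0.066 with 1 array left out (0.016 without knockout replicate 2). Against the round list, with 1 array left out, Prm2 ranged from −0.063 to 0.120 (−0.051 without wild type replicate 2), Tnp1 from −0.083 to 0.063 and Tnp2 from −0.077 to 0.101. There Tnp1 was 0.057 against the list median and Tnp2 −0.032 under quantile normalization. The number of probe sets called by limma, 312, was 148 with quantile normalization, 646 with median centring (147 higher), 598 with equal trimmed means, 2375 with the 75th percentile filter (432 higher), 0 with no filter (6192 at an unadjusted p under 0.05), 36 without the trend (25 higher), and 0 to 0 with any 1 array left out (3084 to 5500 at an unadjusted p under 0.05), when the lone array of a genotype is assumed to vary like the other genotype. With the replicate number as a replicate block it was 541, and no member was called. The labels do not say whether same-numbered arrays form pairs. Their deviations from the group means correlated at 0.03, which cannot settle it. Apart from the values named here, the causes of these changes were not tested.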
